A study of Mus musculus with 11 samples.

Results

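Interferon-stimulated genes are the genes that cells switch on when they sense interferon, and 40 of them were followed here through macrophages sorted from mouse mammary tumours. The 40 were taken by symbol from the deposited expression table, out of 17475 genes in all. Interferon regulatory factors and chemokines are not among the 40. Each member had 1 row and a value in every library, and no member was dropped for a low value.

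Type I interferons bind the receptor IFNAR1/IFNAR2, whose kinases JAK1 and TYK2 activate transcription factors of the STAT family, STAT2 among them. A complex that holds STAT2 and IRF9 binds the interferon-stimulated response element (ISRE) in target promoters. Interferon gamma acts through its own receptor and leads to binding at gamma-activated sites (GAS). The products block viral replication, sense foreign or misplaced nucleic acids, attack the membranes around intracellular pathogens, and feed back on the pathway. In tumours, macrophages are both a source of interferon signals and a cell type that responds to them.

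There were 11 RNA-seq libraries from 6 female mice backcrossed to B6, and all carried the PyMT oncogene, which drives mammary tumours. The MYC mice (S100a8-cre, Rosa26-LSL-MYC, PyMT) can express MYC from the Rosa26 locus in cells that have used the S100a8 promoter, which is active in the myeloid lineage. The control mice carried PyMT. Mice of both genotypes were lethally irradiated at 7 weeks of age, given 3 M (mega) bone marrow cells from wild-type B6 donors, and moved to a low protein diet 2 weeks later for 6 weeks. The cells sorted here may therefore be wild-type donor cells in hosts that differ in genotype, and which host macrophages remained was not measured. There were 4 groups: tumour-associated macrophages (TAMs) of MYC mice 2, 4 and 6, mammary tissue macrophages (MTMs) of MYC mice 2 and 4, TAMs of control mice 1, 3 and 5, and MTMs of the same control mice. Both cell types were sorted as CD45+ F4/80+ cells negative for SiglecF, Ly6G, B220 and Ly6C, TAMs as Vcam+ and MTMs as Vcam- FOLR2+. The comparisons ask how the 2 macrophage types differ within a genotype, and how each differs between MYC and control mice.

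The sort markers did not all follow the labels. Vcam1, which defines the TAM gate, had log2 levels of 0.96, 1.61 and 2.82 in TAMs of MYC mice, with 2.32 and 2.31 in their MTMs, against 8.60, 7.64 and 8.57 in control TAMs and 5.31, 6.86 and 5.25 in control MTMs. The libraries labelled TAM from MYC mice thus held little RNA of their gating marker, and every result on them below rests on that label. Folr2 lay between 1.07 and 3.62 in MYC TAMs and 0.96 and 1.77 in control TAMs, far below both MTM groups, as the gate has it. Ptprc, which encodes CD45, had 5.21, 5.59 and 5.62 in MYC TAMs and 6.10, 6.07 and 6.34 in control TAMs (limma, adjusted p = 0.0215). Emr1, which encodes F4/80, was lower in MYC TAMs (7.50, 7.57 and 8.37) than in control TAMs (9.93, 9.40 and 9.56; limma, adjusted p = 0.00148). Myc itself had 2.16, 1.92 and 1.78 in MYC TAMs and 2.66, 3.18 and 3.11 in control TAMs (limma, adjusted p = 0.00583), and whether this row counts reads of the transgene is not given in the sources used here. Estimated reads in genes ranged over the libraries from 32.6 to 43.8 M, and the labels give RNA integrity numbers of 3.3 to 9.6 for the series as a whole. MYC TAM 4 stood apart in its low end, with 581 genes at the lowest value a gene takes, against 2072 to 3522 in the other libraries.

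Before the levels, the promoters of 5 members whose levels fell in MYC TAMs are shown, 4 that hold the letters of the element the interferon pathway reads and 1 that does not. RefSeq promoter windows of 300 bases (250 before to 50 after the start, GRCm38.p6) were found for 30 of the 40 members. ISRE letters (GAAA, any 2 bases, then GAAA, on either strand) stood in the windows of 22 of these 30 members, or 73.3%, against 3.99% of 27025 genes. GAS letters (TTCNNNGAA, which read the same pattern on either strand) stood in 11 members, or 36.7%, against 9.55% of genes, and 8 members held both, whose letters overlapped in 2 of them. All 4 guanylate-binding protein genes held ISRE letters. The sequences below run 5′ to 3′ on the strand of the gene, with capitals marking ISRE letters. Gbp3 is at chr3:142559794-142560093 on the plus strand. Bst2 is at chr8:71537423-71537722, Isg15 at chr4:156200769-156201068, Ifih1 at chr2:62646206-62646505 and Ifi44 at chr3:151749861-151750160, all on the minus strand.
Gbp3: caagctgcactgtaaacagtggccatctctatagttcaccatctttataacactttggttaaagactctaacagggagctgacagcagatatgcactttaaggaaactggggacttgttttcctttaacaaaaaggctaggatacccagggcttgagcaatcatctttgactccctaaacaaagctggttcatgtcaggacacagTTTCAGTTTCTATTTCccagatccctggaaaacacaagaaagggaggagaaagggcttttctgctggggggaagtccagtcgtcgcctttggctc
Bst2: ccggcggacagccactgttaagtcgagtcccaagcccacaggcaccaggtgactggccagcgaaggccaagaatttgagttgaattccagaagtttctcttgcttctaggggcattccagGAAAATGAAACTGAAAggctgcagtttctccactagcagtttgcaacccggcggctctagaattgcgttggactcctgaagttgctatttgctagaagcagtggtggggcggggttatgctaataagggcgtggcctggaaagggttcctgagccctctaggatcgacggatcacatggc
Isg15: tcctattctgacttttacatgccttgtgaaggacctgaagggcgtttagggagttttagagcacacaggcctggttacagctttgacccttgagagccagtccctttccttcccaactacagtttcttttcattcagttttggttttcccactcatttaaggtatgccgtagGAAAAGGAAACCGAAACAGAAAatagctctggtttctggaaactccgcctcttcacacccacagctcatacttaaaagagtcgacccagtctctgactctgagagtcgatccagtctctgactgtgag
Ifih1: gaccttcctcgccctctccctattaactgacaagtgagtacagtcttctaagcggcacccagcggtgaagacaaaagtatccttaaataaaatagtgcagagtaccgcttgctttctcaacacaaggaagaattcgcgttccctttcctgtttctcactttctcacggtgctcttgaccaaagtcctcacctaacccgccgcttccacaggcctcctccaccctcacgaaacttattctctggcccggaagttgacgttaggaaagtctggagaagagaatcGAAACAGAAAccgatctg
Ifi44: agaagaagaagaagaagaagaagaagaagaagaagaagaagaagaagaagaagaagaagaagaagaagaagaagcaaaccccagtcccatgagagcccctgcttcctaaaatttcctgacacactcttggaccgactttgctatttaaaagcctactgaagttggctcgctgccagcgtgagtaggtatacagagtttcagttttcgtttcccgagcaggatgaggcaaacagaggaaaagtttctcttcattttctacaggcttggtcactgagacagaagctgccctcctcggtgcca
Matches overlap in the first 3 of these: Gbp3 holds 2 of them, starting 45 and 39 bases before the gene's start and lying on the opposite strand. Bst2 holds 2 from 130 bases before the start, and Isg15 holds 3 from 78 bases before it. Ifih1 has a single match just after the start. Ifi44 has none, which says only that these letters are not in this window. A match is a description of letters and no measure of binding in these cells.

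The members spanned a wide range of levels. Values are the deposited log2 levels, which the low values show to be scaled by gene length and library depth with 1 added before the logarithm, so members can be set beside each other. Ifitm3, which blocks the fusion of viral envelopes with the cell's membranes, was the highest member with a mean of 8.88 over the 4 group means, and Bst2 (tetherin), which holds budding virus on the cell surface, was next at 8.50. Oas1a (6.87), an oligoadenylate synthetase whose product activates RNase L, and Usp18 (6.56), the protease that removes ISG15 from proteins, followed. Socs1, a feedback inhibitor of the JAK kinases, was the lowest at 0.13. Socs1 was also among the members with the fewest estimated reads, between 1.55 and 22.6 per library, and Tgtp1 had about 1 read in MYC TAM 4. Differences of those members rest on few reads.

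**Figure D1:**
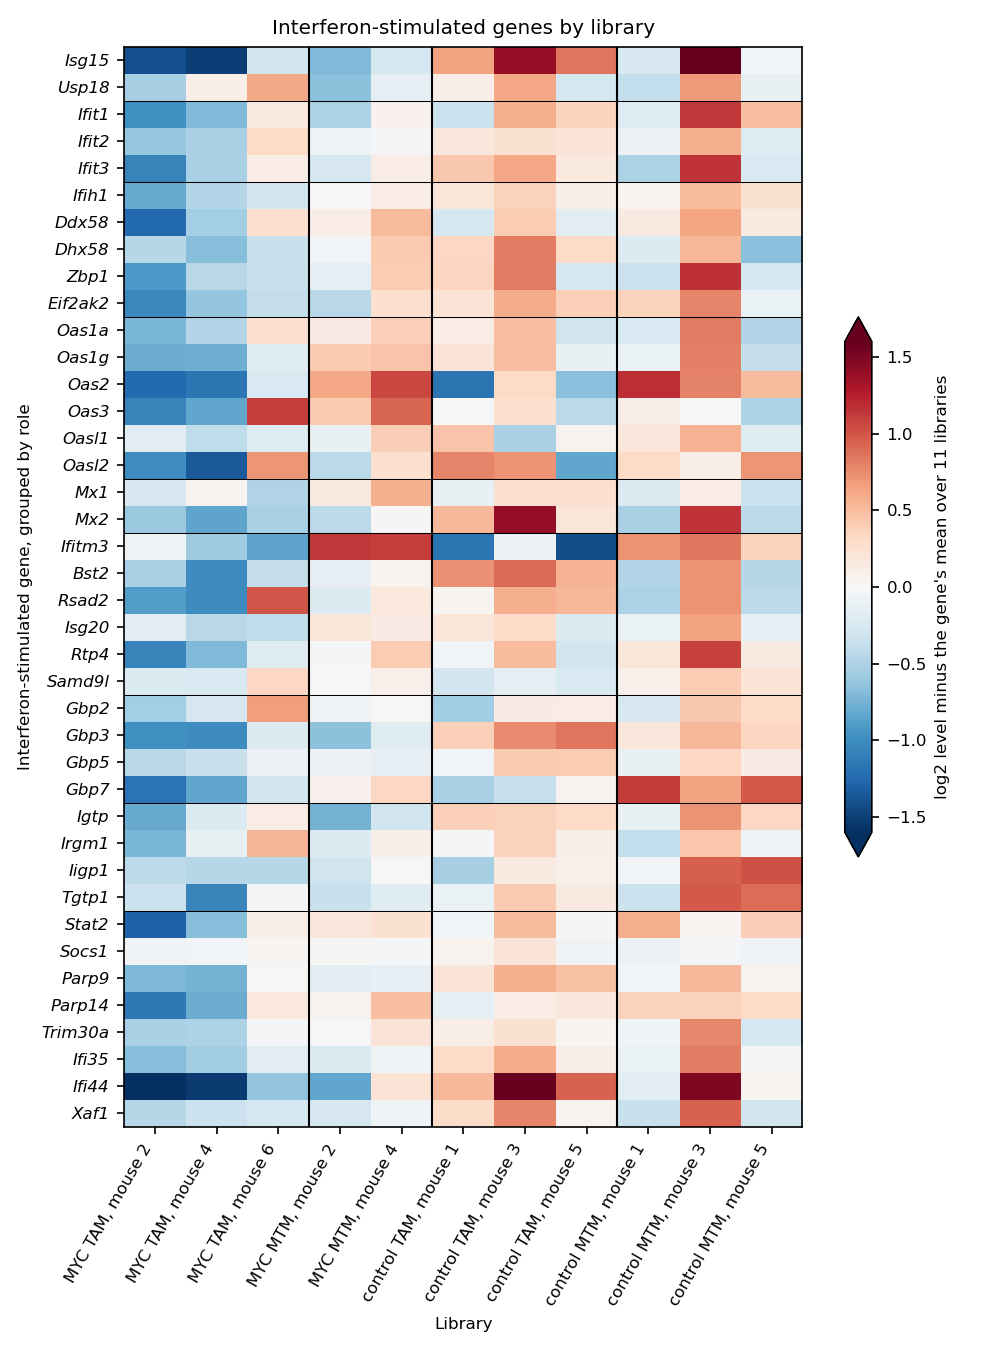
Each row is 1 of the 40 members, grouped by role, and each column 1 of the 11 libraries; colour is the log2 level minus the member's mean over the libraries. The columns of MYC TAMs 2 and 4 are below the mean for most members, and those of control mouse 3 above it.

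Averaged over the 40 members, the log2 level was 2.63, 2.75 and 3.36 in TAMs of MYC mice, 3.26 and 3.58 in their MTMs, 3.44, 3.85 and 3.44 in control TAMs, and 3.36, 4.07 and 3.43 in control MTMs. The 3 MYC TAM libraries were all below the 3 control TAM libraries, and MYC TAMs 2 and 4 were the lowest of all 11. Over the 9375 genes whose mean level was at least 1, the averages were 3.17, 3.29 and 3.15 in MYC TAMs and 3.36, 3.52 and 3.47 in control TAMs, so a smaller gap in the same direction ran through the table as a whole. MYC TAMs had the lowest of the 4 group means for 34 of the 40 members. The same held for 38.1% of all genes and 49.4% of those with a mean of 1 or more. None of the 40 had its highest group mean in MYC TAMs, while 19 had it in control TAMs, 13 in control MTMs and 8 in MYC MTMs. The shares of all genes for the highest group are not given here, so nothing particular to the 40 is read from these counts.

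**Figure D2:**
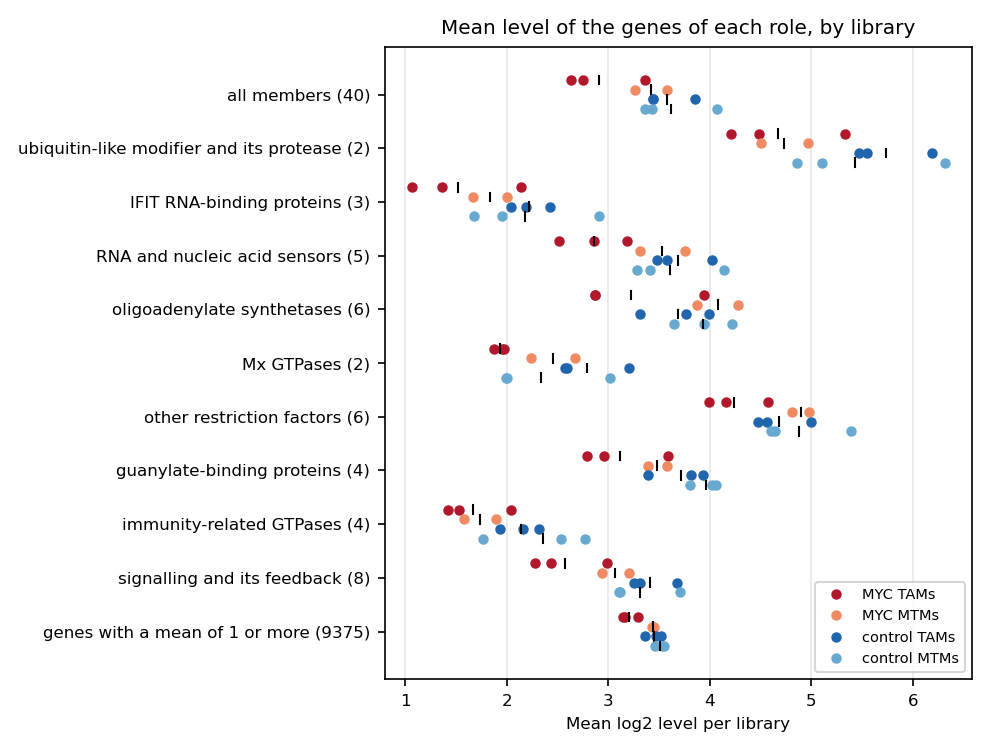
Mean log2 level per library (x axis) over the members of each role, with the mean over all 40 members in the top row and over the 9375 genes with a mean level of at least 1 in the bottom row; a point is 1 library and a short line the group mean. In all 9 roles the lowest point is a MYC TAM library, and the highest control MTM point in each role is mouse 3.

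In TAMs, 8 of the 40 interferon-stimulated genes were lower in MYC mice than in control mice, with the largest differences in Ifi44, Isg15, Gbp3 and Bst2, and 32 did not pass the test. At an adjusted p below 0.05 (limma, Benjamini-Hochberg over all 17475 genes), none rose. The 8 are 20% of the members, against 12.0% of all genes called lower and 3.89% called higher in this comparison. Fitted over the 9375 genes whose mean level was at least 1, 10 of 36 members were called, all lower. That fit called 2656 genes in either direction, so no excess of called members is read from these counts. The 8 come from several roles: the modifier Isg15, the RNA sensors Ifih1, Dhx58 and Eif2ak2, the restriction factor Bst2, the GTPase Gbp3, and Ifi44 and Parp9. Differences were below 0 for 37 members, with a median of -0.65, with Ifitm3, Samd9l and Gbp2 above 0, against -0.02 over all genes and -0.21 over genes whose mean level was at least 1. The MYC and control TAM libraries did not overlap for 17 members, or 42.5%, all lower in MYC mice, against 22.1% of all genes.

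Isg15 encodes a ubiquitin-like protein that is joined to other proteins and also secreted (chromosome 4: 156199424 to 156200818). It had log2 levels of 2.36, 2.26 and 3.47 in MYC TAMs, against 4.41, 5.18 and 4.63 in control TAMs. Every MYC TAM library was below every control one, with mouse 6 the nearest to control. The difference was -2.04 ± 0.50 (SE), a 4.11-fold lower level (limma, adjusted p = 0.0216). Usp18, which takes ISG15 off its targets and blocks IFNAR signalling, had 6.06, 6.70 and 7.19 in MYC TAMs, against 6.69, 7.20 and 6.31 in control TAMs. These libraries overlapped, and the difference was -0.09.

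Ifi44, a gene induced by type I interferon, had the largest difference of the 40 (chromosome 3: 151730922 to 151749960). Its levels were 0.61, 0.72 and 1.62 in MYC TAMs and 2.77, 3.87 and 3.20 in control TAMs. The groups lay more than a log2 unit apart at their nearest libraries. The difference was -2.30 ± 0.51, or 4.92-fold lower (limma, adjusted p = 0.0143). Parp9, an ADP-ribosyltransferase family protein that works with the E3 ligase DTX3L, had 2.59, 2.55 and 3.30 in MYC TAMs and 3.52, 3.88 and 3.78 in control TAMs (chromosome 16: 35938470 to 35972605). Its groups did not overlap, and it fell by 0.91 ± 0.24 (limma, adjusted p = 0.0281).

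Gbp3 belongs to the guanylate-binding proteins, GTPases that coat and break open the vacuoles of intracellular pathogens (chromosome 3: 142560026 to 142573209). It had 3.56, 3.53 and 4.31 in MYC TAMs and 4.92, 5.30 and 5.39 in control TAMs. No MYC TAM library reached the lowest control one. The difference was -1.40 ± 0.24, or 2.64-fold lower (limma, adjusted p = 0.00418), the smallest adjusted p of the 40. Gbp2, also on chromosome 3, had 4.43, 4.70 and 5.64 in MYC TAMs and 4.42, 5.11 and 5.10 in control TAMs, which overlapped. The guanylate-binding proteins share sequence, so how their reads were divided among them is uncertain.

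Bst2 had levels of 7.98, 7.49 and 8.11 in MYC TAMs and 9.23, 9.40 and 9.06 in control TAMs (chromosome 8: 71534255 to 71537456). The control libraries were close together and all above the MYC ones. The difference was -1.37 ± 0.31, or 2.59-fold lower (limma, adjusted p = 0.0163). Bst2 is also a surface marker of plasmacytoid dendritic cells. The mean level of 5 measured markers of those cells was 0.213 to 0.545 in MYC TAMs and 0.810 to 0.962 in control TAMs. These markers did not move as 1. Siglech was at its lowest possible value in MYC TAMs 2 and 6, and also in MYC MTM 2, where Bst2 had 8.36. Tcf4, Klk1 and Cox6a2 overlapped between the TAMs of both genotypes, and Ccr9 was at most 0.0354 in them. The part of plasmacytoid dendritic cells in the Bst2 difference was not tested. Ifitm3 went the other way in direction without passing the test, with 8.71, 8.22 and 7.94 in MYC TAMs and 7.62, 8.69 and 7.36 in control TAMs.

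Among the RNA sensors, 3 of 5 fell in MYC TAMs. Ifih1 encodes MDA5, which detects long double-stranded RNA (chromosome 2: 62595798 to 62646255). It had 2.04, 2.38 and 2.55 in MYC TAMs and 3.04, 3.21 and 2.95 in control TAMs, and fell by 0.74 ± 0.19 (limma, adjusted p = 0.0246). Eif2ak2 encodes PKR, which shuts down translation on binding double-stranded RNA (chromosome 17: 78852564 to 78882573). Its levels were 2.15, 2.57 and 2.81 in MYC TAMs and 3.41, 3.78 and 3.57 in control TAMs, and it fell by 1.07 ± 0.28 (limma, adjusted p = 0.0284). Dhx58 encodes LGP2, a regulator of MDA5 and RIG-I (chromosome 11: 100694884 to 100704271). It had 3.81, 3.59 and 3.91 in MYC TAMs and 4.60, 5.09 and 4.59 in control TAMs, and fell by 0.99 ± 0.29 (limma, adjusted p = 0.0470). The 2 groups did not overlap for any of these 3 sensors. Ddx58, which encodes RIG-I, had 1.48, 2.18 and 2.99 in MYC TAMs against 2.44, 3.13 and 2.55 in control TAMs, which overlapped.

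**Figure D3:**
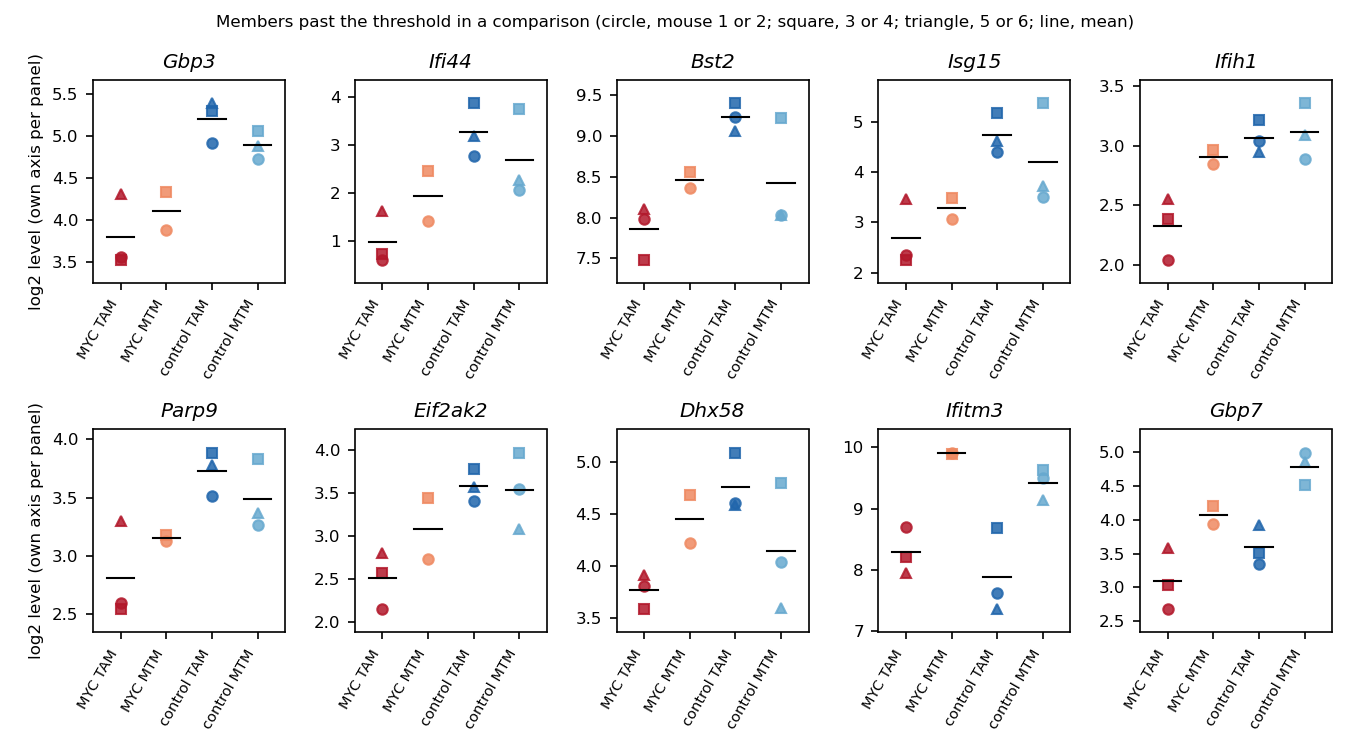
Log2 level of the 10 members that passed the test in at least 1 comparison, a panel each with its own axis that does not start at 0; a marker is 1 library, its shape the mouse, and a line the group mean. For the first 8, MYC TAMs lie below control TAMs without overlap, and for Ifitm3 and Gbp7 both TAM groups lie below the MTM group of their genotype.

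The remaining roles had no called member in this comparison. All 6 oligoadenylate synthetases had a difference below 0, between -0.78 and -0.21. The highest of them, Oas1a, had 6.12, 6.38 and 7.12 in MYC TAMs and 6.97, 7.33 and 6.53 in control TAMs, which overlapped. Oas1a and Oas1g are near copies, and reads may be shared between them. The 3 IFIT genes, whose proteins bind viral RNA, had differences between -0.90 and -0.48. Ifit3, the highest IFIT, had 2.22, 2.77 and 3.40 in MYC TAMs and 3.72, 3.91 and 3.44 in control TAMs, just without overlap. The Mx GTPases, which trap viral nucleoproteins, both lay below 0: Mx1 had 2.24, 2.53 and 2.01 in MYC TAMs and 2.37, 2.76 and 2.74 in control TAMs, with overlapping libraries. Mx2, annotated as a polymorphic pseudogene, had a difference of -1.36. The immunity-related GTPases, which act on pathogen vacuoles, had differences between -0.66 and -0.26, and their highest member Igtp had 2.61, 3.21 and 3.54 in MYC TAMs and 3.81, 3.79 and 3.74 in control TAMs without overlap. Stat2, the signal transducer itself, had 3.71, 4.33 and 5.10 in MYC TAMs and 4.97, 5.52 and 5.03 in control TAMs, which overlapped through mouse 6.

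**Figure D4:**
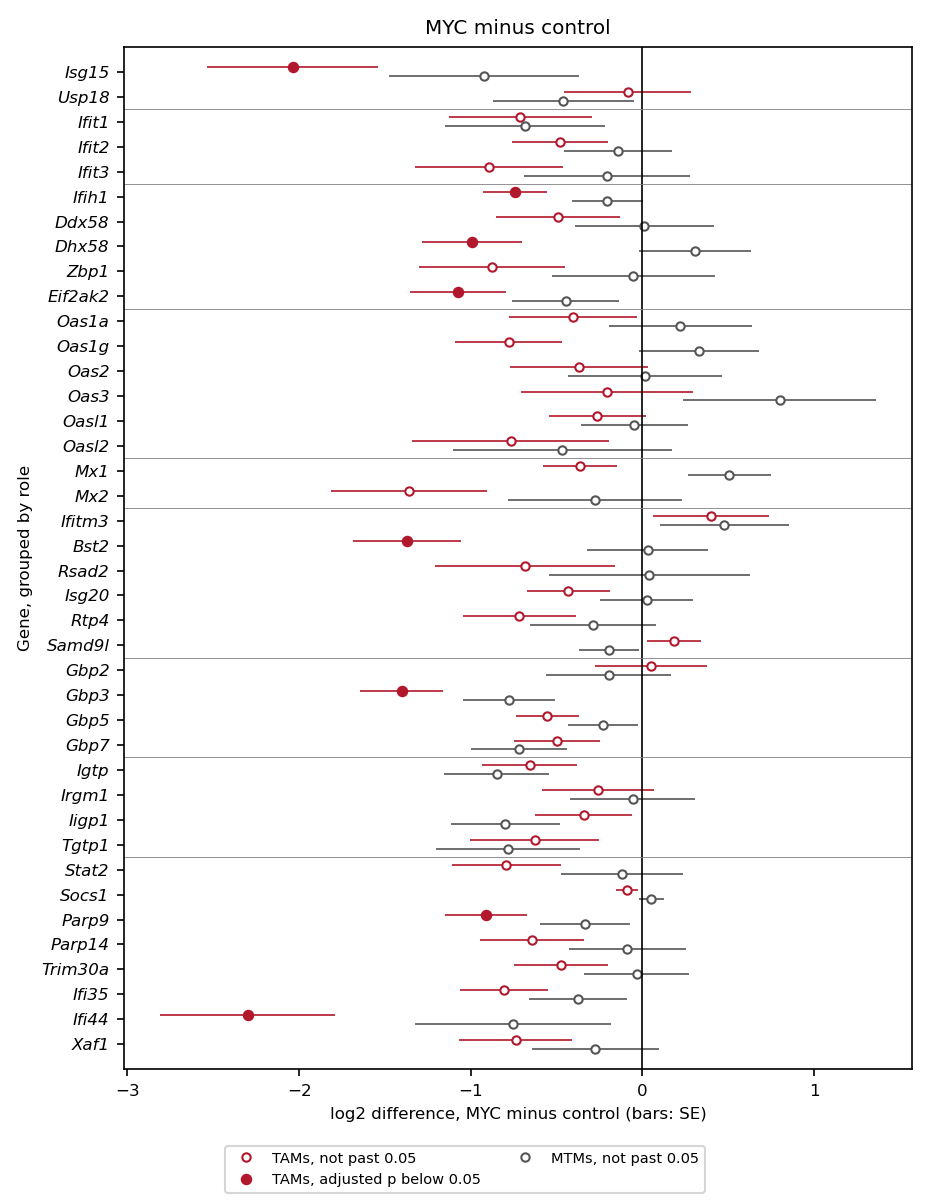
Difference in log2 level between MYC and control mice for each of the 40 members, in TAMs and in MTMs, with bars of 1 SE and filled points for adjusted p below 0.05. In TAMs 37 points lie left of 0 and 8 are filled; in MTMs 28 lie left of 0 and none is filled.

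Single libraries weighed on these calls. The count was 1 without control TAM 3, 2 without MYC TAM 2, 2 without MYC TAM 4 and 3 without control TAM 5, and it was 11 without MYC TAM 6 and 12 without control MTM 3, which is in the fit for its spread alone; without any of the other 5 libraries it was 7 or 8. Gbp3 was called in all 18 alternative fits, with an adjusted p of at most 0.0302. Bst2 was called in 16 of 18, Ifi44 in 15, Isg15 in 14, Eif2ak2 in 13, Ifih1 and Parp9 in 11 each, and Dhx58 in 6. Bst2 lost its call without MYC TAM 4 or control TAM 3 (limma, adjusted p = 0.0697 and 0.0642), and Ifi44 without MYC TAM 2, MYC TAM 4 or control TAM 3 (0.0514 to 0.0642). Isg15 and Eif2ak2 lost theirs without any 1 of MYC TAM 2, MYC TAM 4, control TAM 3 and control TAM 5 (0.0571 to 0.0906 for Isg15 and 0.0721 to 0.104 for Eif2ak2), and so did Parp9 (0.0847 to 0.102). Ifih1 lost its call without MYC TAM 2 or any 1 of the 3 control TAM libraries (0.0506 to 0.0938). Dhx58 kept its call with 1 library left out only without control MTM 3 or control MTM 5 (0.0628 to 0.168 otherwise). After each library was centred on its own median, which moved the median difference of all genes to 0.19, the members' median was -0.44 and 5 were called. That fit called 5029 of all 17475 genes in either direction, against 2778 in the main fit. Over all genes 1734 were called without control TAM 3, 2094 without MYC TAM 2 and 2374 without MYC TAM 4. There were 1929 without control TAM 5, 2996 without MYC TAM 6 and 2820 without control MTM 3.

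RNA of other cell types moved with the same comparison. The mean log2 level of 10 T and NK cell markers was 0.217 to 0.499 in MYC TAMs and 2.10 to 3.01 in control TAMs. Of these markers, Cd3e and Gzma were at their lowest possible value in all 3 MYC TAM libraries. Cd4 kept 1.67, 2.13 and 2.97 in MYC TAMs, against 4.05, 4.48 and 3.50 in control TAMs. Ncr1 and Klrb1c overlapped between the 2 groups, and the rest were lower in MYC TAMs without overlap. For 7 measured mammary epithelial markers the mean was 1.61 to 4.20 in MYC TAMs and 5.01 to 6.19 in control TAMs. Macrophage markers averaged 8.65 to 9.17 in MYC TAMs and 9.12 to 9.67 in control TAMs. Within that list Emr1, Csf1r, Fcgr1, C1qa and C1qb were lower in MYC TAMs, and Cd68, Mertk and Lyz2 were higher, all without overlap. Neutrophil markers averaged 2.69 to 3.07 in MYC TAMs and 1.81 to 2.25 in control TAMs. Means of monocyte markers were at most 0.586 in TAMs of either genotype and 1.73 to 2.70 in MTMs, while B cell, endothelial and fibroblast markers averaged at most 1.48 in any library and overlapped between the TAMs of both genotypes. Conventional dendritic cell markers averaged 0.0159 to 0.251 in MYC TAMs and 0.584 to 0.812 in control TAMs. The part of these cell types in the differences of the interferon-stimulated genes was not tested. In sorted bulk RNA, fewer cells of a type and less RNA per cell cannot be told apart.

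In MTMs, no member passed the test between MYC and control mice, against 0.618% of all genes called in either direction. By limma 4 members had an unadjusted p below 0.05, and the smallest adjusted p was 0.322, for Gbp3 (-0.78 ± 0.27). Differences were below 0 for 28 of 40 members. The median of the 40 was -0.19, against -0.02 over all genes and -0.06 over genes whose mean level was at least 1. The libraries did not overlap for 6 members lower in MYC MTMs, against 20.1% of all genes, and for 4 higher in them, against 11.1%.

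The 4 largest differences in MTMs ran in both directions. Isg15 had 3.07 and 3.49 in MYC MTMs and 3.51, 5.36 and 3.73 in control MTMs, a difference of -0.92 ± 0.56. Its MYC values lay just under the lowest control value, and control mouse 3 was far above both other control mice. Igtp had 2.66 and 3.10 in MYC MTMs and 3.30, 4.15 and 3.75 in control MTMs (-0.85 ± 0.31). Iigp1, another immunity-related GTPase, had 0.40 and 0.72 in MYC MTMs and 0.67, 1.68 and 1.73 in control MTMs (-0.80 ± 0.32). Oas3, which senses long double-stranded RNA, was above control by 0.80, with 3.68 and 4.19 in MYC MTMs and 3.37, 3.27 and 2.77 in control MTMs. Its libraries did not overlap. Their adjusted p-values by limma were 0.322 or more, as for all 40 members, and 0.674 for Isg15. Without control MTM 3, which was the highest control MTM for 34 members, the median difference of the 40 was 0.01.

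Whether the genotype difference was unlike in the 2 cell types was tested directly, as the difference of the TAM minus MTM differences. No member passed by limma, against 1.24% of all genes (0.996% below 0), while 4 had an unadjusted p below 0.05. The share of all genes below that unadjusted p is not given here. The estimate was below 0, meaning that MYC minus control was lower in TAMs than in MTMs, for 33 of 40 members. The median of the 40 was -0.46, against 0.01 over all genes and -0.15 over genes whose mean level was at least 1. Bst2 (-1.40 ± 0.47, limma, adjusted p = 0.258), Dhx58 (-1.30 ± 0.44, limma, adjusted p = 0.261) and Ifi44 (-1.55 ± 0.77, limma, adjusted p = 0.535) had among the largest estimates. Isg15 was at -1.12. A fit with the mouse as a fixed block was also run, to which MYC TAM 6 adds nothing. Again no member passed (limma, smallest adjusted p = 0.0735), and 31 genes were called in all. In that fit 36 members were below 0, with a median of -0.68, and 19 had an unadjusted p below 0.05. The unblocked fit without MYC TAM 6 had the same median, and 12 members had an unadjusted p below 0.05. Without control TAM 3 the median was -0.37, and 2 members did. So the 8 calls in TAMs and none in MTMs were not shown to differ between the cell types; without control MTM 3, Bst2 alone passed (limma, adjusted p = 0.0292).

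Within MYC mice, 1 of the 40 members, Ifitm3, was lower in TAMs than in MTMs by the test, and none was higher. That is 1 of 40, or 2.50%, against 3.82% of all genes called lower, 0.664% called higher and 4.49% in either direction. Differences were below 0 for 38 members, with a median of -0.45, against -0.01 over all genes and -0.20 over genes whose mean level was at least 1. The libraries did not overlap for 17 members, all lower in TAMs, against 23.5% of all genes lower and 6.82% higher without overlap. Both MYC mice that gave both cell types showed the direction: 38 members were lower in TAMs in mouse 2 and 38 in mouse 4, with medians of -0.52 and -0.83. In both mice 37 were lower, against 34.4% of all genes and 48.1% of those whose mean level was at least 1. This comparison and the one between genotypes in TAMs share the 3 MYC TAM libraries. Some marker levels moved the same way. Mammary epithelial markers averaged 1.61 to 4.20 in MYC TAMs against 4.37 to 4.57 in MYC MTMs. Macrophage markers averaged 8.65 to 9.17 in MYC TAMs against 9.63 to 9.66 in MYC MTMs, and Emr1 was lower in MYC TAMs (-2.07 ± 0.29, limma, adjusted p = 0.00428). Csf1r, Fcgr1, C1qa and C1qb were also lower without overlap, while Mertk and Lyz2 overlapped. Cd68 was higher in MYC TAMs (10.4, 10.4 and 10.2) than in MYC MTMs (9.42 and 9.50), so the macrophage markers did not move as 1. Their part in the members' differences was not tested.

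Ifitm3 had log2 levels of 8.71, 8.22 and 7.94 in MYC TAMs, against 9.91 and 9.89 in MYC MTMs. The groups were more than a log2 unit apart. Its level was 3.06-fold lower in TAMs (-1.61 ± 0.38, limma, adjusted p = 0.0434). With the mouse as a block, its difference was -1.44 ± 0.28 and the call was lost (limma, adjusted p = 0.0665). In that blocked fit, to which the TAMs of mouse 6 add nothing for lack of a partner, 4 other members were lower: Oas3 (-1.63 ± 0.18, limma, adjusted p = 0.0198), Rtp4 (-1.08 ± 0.15, limma, adjusted p = 0.0347), Ddx58 (-1.21 ± 0.19, limma, adjusted p = 0.0413) and Parp14 (-1.23 ± 0.20, limma, adjusted p = 0.0463). The blocked fit called 476 of all 17475 genes in either direction in this comparison. Oas3 had 2.19, 2.43 and 4.37 in MYC TAMs against 3.68 and 4.19 in MYC MTMs, so mouse 6 alone overlapped the MTMs. Parp14, a mono-ADP-ribosyltransferase, had 1.18, 1.53 and 2.49 in MYC TAMs against 2.37 and 2.80 in MYC MTMs, with the same overlap. Without MYC TAM 6, the unblocked fit called 5 members (Oas2, Oas3, Gbp7, Stat2 and Parp14) among 1031 genes, and Ifitm3 was not one of them. Without control TAM 3 it called 2 members among 645 genes. It called none without MYC TAM 4, MYC MTM 2, MYC MTM 4, control TAM 1 or any 1 of the 3 control MTM libraries, where the adjusted p of Ifitm3 by limma was 0.0572 to 0.256.

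Other large differences within MYC mice did not pass. Oas2 had 1.50, 1.59 and 2.51 in MYC TAMs, against 3.37 and 3.81 in MYC MTMs, without overlap (-1.72 ± 0.45, limma, adjusted p = 0.0684). Oas1g had 2.34, 2.35 and 2.94 in MYC TAMs, against 3.54 and 3.58 in MYC MTMs (-1.02 ± 0.35, limma, adjusted p = 0.160). Gbp7 had 2.68, 3.03 and 3.58 in MYC TAMs, against 3.93 and 4.20 in MYC MTMs (-0.97 ± 0.28, limma, adjusted p = 0.0968). None of these 3 overlapped between the cell types. Ifi44 had 0.61, 0.72 and 1.62 in MYC TAMs, against 1.42 and 2.47 in MYC MTMs, which overlapped through mouse 6 (a difference of -0.96).

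In control mice the 2 cell types had nearly the same level of the 40 as a whole, and Ifitm3 and Gbp7 stood lower in TAMs. These 2 members fell and none rose, 5.00% of the members against 1.63% of all genes called lower and 0.744% called higher. Differences were below 0 for 17 members and above it for 23. The median of the 40 was 0.06, against -0.004 over all genes and -0.04 over genes whose mean level was at least 1. The libraries did not overlap for 5 members lower in TAMs, or 12.5%, against 12.0% of all genes, and for none higher in TAMs, against 6.90%.

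Gbp7, a guanylate-binding protein (chromosome 3: 142530342 to 142550149), had 3.35, 3.50 and 3.92 in control TAMs, against 4.99, 4.51 and 4.85 in control MTMs. All 3 TAM libraries were below all 3 MTM libraries. The difference was -1.19 ± 0.25, or 2.28-fold lower (limma, adjusted p = 0.0425). Ifitm3 (chromosome 7: 141009586 to 141010770) had 7.62, 8.69 and 7.36 in control TAMs, against 9.50, 9.63 and 9.15 in control MTMs, again without overlap. It was 2.90-fold lower in TAMs (-1.54 ± 0.34, limma, adjusted p = 0.0493). Both calls sat near the threshold: with the mouse as a block the adjusted p-values by limma were 0.0510 for Gbp7 and 0.0522 for Ifitm3. Gbp7 was called in 7 of 19 alternative fits and Ifitm3 in 5. With 1 library left out, none of the 40 was called without MYC TAM 4, either MYC MTM library, control TAM 1, control TAM 5, control MTM 1 or control MTM 5. Gbp7 alone was called without MYC TAM 2 or MYC TAM 6, and Ifitm3 alone without control TAM 3. Without control MTM 3, Gbp7 was called lower and Bst2 higher in TAMs. Where a left-out library ended the call, the adjusted p by limma was 0.0515 to 0.174 for Gbp7 and 0.0519 to 0.197 for Ifitm3.

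For both genes every TAM library lay below every MTM library of its genotype. The direction within each mouse follows from that and adds no support to the calls. For Ifitm3 the TAM minus MTM difference was -1.20 and -1.68 in MYC mice 2 and 4 and -1.88, -0.94 and -1.79 in control mice 1, 3 and 5. For Gbp7 it was -1.25 and -1.17 in MYC mice 2 and 4 and -1.63, -1.01 and -0.93 in control mice 1, 3 and 5. Oas2, whose TAMs and MTMs did not overlap in either genotype, gave -1.86 and -2.22 in MYC mice 2 and 4. It gave -2.36, -0.47 and -1.18 in control mice 1, 3 and 5. Oas2 in control mice did not pass (-1.34 ± 0.40, limma, adjusted p = 0.159). In all, 10 members were lower in TAMs in all 5 mice: Ifit1, Ddx58, Oas2, Ifitm3, Rtp4, Samd9l, Gbp2, Gbp7, Iigp1 and Parp14. The same held for 10.7% of all genes and 15.7% of those whose mean level was at least 1. No test of a shared direction was run.

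Bst2 and Mx2 had differences above 0 in control mice without passing. Bst2 had 9.23, 9.40 and 9.06 in control TAMs and 8.03, 9.22 and 8.04 in control MTMs, overlapping through mouse 3 (0.80 ± 0.31, limma, adjusted p = 0.323). Mx2 had 2.78, 3.66 and 2.45 in control TAMs and 1.74, 3.42 and 1.85 in control MTMs, again overlapping through mouse 3 (0.63 ± 0.46, limma, adjusted p = 0.755). Iigp1 lay on the same side as Ifitm3 and Gbp7, with 0.19, 0.86 and 0.80 in control TAMs and 0.67, 1.68 and 1.73 in control MTMs (-0.74 ± 0.28, limma, adjusted p = 0.302). Across single mice, 13, 28 and 18 members were lower in TAMs in control mice 1, 3 and 5, with medians of 0.25, -0.23 and 0.09. In all 3 control mice together 10 members were lower, against 19.9% of all genes and 25.8% of those whose mean level was at least 1. The 3 control mice thus did not share a direction for the 40 as a whole.

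**Figure D5:**
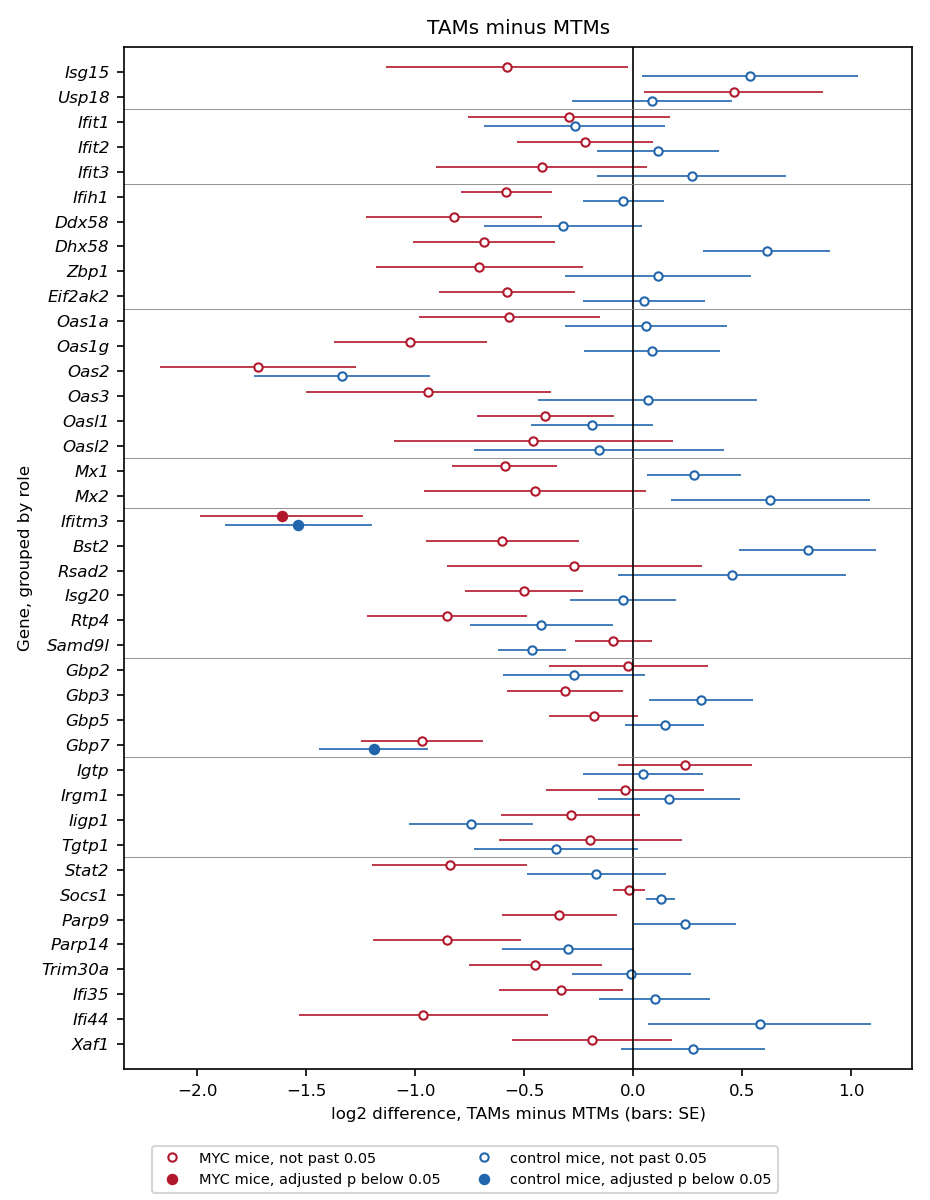
Difference in log2 level between TAMs and MTMs for each of the 40 members, in MYC and in control mice, with bars of 1 SE and filled points for adjusted p below 0.05. In MYC mice 38 points lie left of 0 and Ifitm3 is filled; in control mice 17 lie left of 0 and Ifitm3 and Gbp7 are filled.

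The members also varied together from mouse to mouse within a group, a pattern noticed after the values were seen and given without a test. Control mouse 3 was the highest of the 3 control TAM libraries for 34 of 40 members, against 39.9% of all genes, and the highest of the 3 control MTM libraries for 34, against 35.8%. For 30 members it was highest in both cell types, against 17.9% of genes. MYC mouse 6 was the highest MYC TAM library for 35 members, against 22.5% of genes, and mouse 2 the lowest for 25, against 50.3%. MYC MTM 4 was above MYC MTM 2 for 36, against 45.5%. Over genes whose mean level was at least 1, these shares were, in the same order, 44.7%, 44.4%, 21.9%, 32.6%, 38.1% and 51.1%. The mean of the mammary epithelial markers was 4.20, 3.10 and 1.61 in MYC TAMs 2, 4 and 6, 5.01, 6.19 and 5.26 in control TAMs 1, 3 and 5, and 4.63, 5.58 and 5.13 in control MTMs 1, 3 and 5. It was thus highest in control mouse 3 in both cell types and lowest in MYC TAM 6. Its part in the members' spread was not tested.

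The receptors and the rest of the pathway were read from a list of 85 other genes, of which 74 had a row. In TAMs, 14 of the 74 were lower and 3 higher in MYC mice than in control mice, against 12.0% of all genes called lower and 3.89% called higher. Of 11 receptor and kinase genes 3 fell, of 13 genes of nucleic acid sensing 3 fell and 1 rose, of 6 interferon regulatory factors 2 fell, and of 43 other inducible genes 6 fell and 2 rose. In MTMs none fell and 2 rose, against 0.280% of all genes called lower and 0.338% called higher. Of 10 interferon genes on the list Ifnl3 alone had a row and it passed in no comparison; the others were not analysed here.

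Ifnar1, a chain of the type I interferon receptor, had log2 levels of 3.46, 4.03 and 4.07 in MYC TAMs, against 5.95, 5.88 and 5.86 in control TAMs. The control libraries were nearly level and far above the MYC ones. It was 4.12-fold lower (-2.04 ± 0.17, limma, adjusted p = 8.90e-05). The other chain, Ifnar2, had 3.15, 3.31 and 3.46 in MYC TAMs and 4.85, 4.52 and 4.52 in control TAMs, and fell by 1.32 ± 0.16 (limma, adjusted p = 0.000731). Tmem173 encodes STING, which passes the signal of cytosolic DNA to interferon induction. It had 4.28, 4.60 and 4.58 in MYC TAMs and 6.64, 6.55 and 6.29 in control TAMs, a 4.02-fold lower level (-2.01 ± 0.15, limma, adjusted p = 5.75e-05). Neither receptor chain nor Tmem173 overlapped between genotypes in TAMs. Cd274, the interferon-inducible checkpoint ligand PD-L1, was higher in MYC TAMs, with 5.29, 5.80 and 5.18 in MYC TAMs and 2.47, 2.29 and 2.80 in control TAMs (2.90 ± 0.27, 7.46-fold higher, limma, adjusted p = 0.000151). The calls of Ifnar1, Ifnar2, Tmem173 and Cd274 were kept in all 18 alternative fits. The other 2 genes higher in MYC TAMs were Ifitm2 (1.58 ± 0.25, limma, adjusted p = 0.00290) and Ikbke (1.15 ± 0.21, limma, adjusted p = 0.00542). In MTMs Cd274 was also higher, with 4.42 and 5.22 in MYC mice and 2.32, 1.81 and 2.42 in control mice (2.64 ± 0.30, limma, adjusted p = 0.00733), and Trim25, the ligase that activates RIG-I, rose by 1.31 ± 0.22 (limma, adjusted p = 0.0375) and was called in 9 of 18 alternative fits. The Cd274 call in MTMs was lost without MYC MTM 4 (limma, adjusted p = 0.0796). Trim25 lost its call without either MYC MTM library (0.182 and 0.287), any 1 control TAM library, control MTM 3 or control MTM 5.

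Between cell types in MYC mice, 6 of the 74 were lower in TAMs and none higher, against 3.82% of all genes called lower and 0.664% called higher. They include Ifi27l2a, an interferon-inducible mitochondrial protein gene, at -4.84 ± 0.44 (limma, adjusted p = 0.000707), and Ly6e, a surface protein that restricts coronavirus entry, at -2.43 ± 0.37 (limma, adjusted p = 0.00655). Tmem173 (-1.35 ± 0.17, limma, adjusted p = 0.00245) and Ifnar1 (-1.29 ± 0.19, limma, adjusted p = 0.00587) were lower in the same comparison. Without MYC MTM 2 the calls of Ifnar1 (limma, adjusted p = 0.0803) and Ly6e (limma, adjusted p = 0.0803) were lost, and that of Ly6e also without MYC MTM 4 (limma, adjusted p = 0.0582). In control mice 2 were higher in TAMs and 2 lower, against 0.744% of all genes called higher and 1.63% called lower. Irf8 was higher (1.06 ± 0.12, limma, adjusted p = 0.00168), as was Ifnlr1 (0.51, limma, adjusted p = 0.0193), while Ifitm2, a close relative of Ifitm3, was lower (-2.04 ± 0.25, limma, adjusted p = 0.00262) and so was the kinase gene Ikbke (-1.35 ± 0.21, limma, adjusted p = 0.00840). Of these Ifnlr1 lost its call with the mouse as a block (limma, adjusted p = 0.0522), without control MTM 1 (0.0949) and without control MTM 5 (0.0666). The TAM minus MTM difference itself differed between genotypes for 4 of the 74, all below 0, against 0.996% of all genes: Irf8 (-1.17 ± 0.18, limma, adjusted p = 0.0184), Tmem173 (-1.42 ± 0.23, limma, adjusted p = 0.0206), Ifnar1 (-1.46 ± 0.25, limma, adjusted p = 0.0311) and Ifi27l2a (-3.07 ± 0.59, limma, adjusted p = 0.0428). Each of these 4 lost its call in at least 7 of 18 alternative fits, among them the fit with the mouse as a block (limma, adjusted p = 0.108 for Irf8, 0.0766 for Tmem173, 0.108 for Ifnar1 and 0.0541 for Ifi27l2a) and the fits without MYC MTM 2 (0.0789 to 0.198) or MYC MTM 4 (0.0846 to 0.171).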

How the data were processed

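Each of the 11 libraries is polyA-selected RNA (500 ng, stranded kit, 8 PCR cycles, per the labels' protocols). The table holds log2 values deposited by the authors. Per the submitters' processing notes, HISAT2, DESeq2, mm10 and GRCm38.p5 were used, with no role given. The low values of each library step by whole reads once the added constant of 1 is removed (95.2% of 9464 low values within 0.1 of a whole number), from which relative depth (0.927 to 1.20) and reads were estimated. This is an inference from the values, and intervals on depth are not given. A log2 difference of a low gene understates its change because of the constant.

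The 5 comparisons were fitted with limma 3.58.1 in R 4.3.3 (lmFit, eBayes with a trend), with 1 mean per group over all 11 libraries (7 residual degrees of freedom), Benjamini-Hochberg adjustment over 17475 genes and a threshold of 0.05. The spread is shared by the 4 groups. The code was tested on simulated data. The members and lists were chosen with earlier results of these data known. The text names up to 8 called members per comparison, by adjusted p, up to 4 with the largest difference where fewer than 4 passed, the highest member of each role, and of the other pathway genes up to 4 per comparison. Members named beyond this rule (Ddx58, Mx2 and Ifitm3 in TAMs between genotypes, those called only with a block or without a library, and Gbp3 in MTMs) were chosen after their values were seen.

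TAMs and MTMs with the same number come from the same mouse, per the labels, so a fit with the mouse as a block was run. Over genes, the deviations of such pairs from their group means correlated at 0.176, 0.211 and 0.0779 in control mice 1, 3 and 5 and at 0.0983 and 0.0379 in MYC mice 2 and 4. Other alternatives were median centring, quantile normalisation, a filter on low values, a pseudocount of 0.1, no trend, only the 2 groups compared, and each library left out. Gene positions are from GENCODE on GRCm38, promoters from RefSeq on GRCm38.p6. Each library is a separate sort. In the main fit, p-values rest on the spread between mice within a group, pooled over the 4 groups. That fit treats the TAM and MTM libraries of a mouse as independent, although they share the animal. With the mouse as a fixed block, p-values rest on how the TAM minus MTM difference varies between mice.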

Additional observations from a re-analysis of the deposited data

How the results depend on the processing

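The difference between genotypes in TAMs had 8 members called. It had 5 after median centring and 4 after quantile normalisation, and 1 to 12 when 1 library was left out. The members' median lay between -0.87 and -0.40 in all its alternatives, with 34 to 39 below 0. For TAMs against MTMs in MYC mice, 1 member was called. The count was 4 with the mouse as a fixed replicate block, 2 with a random block, 0 after median centring, 2 over genes whose mean level was at least 1, 0 with only the 2 groups in the fit, and 0 to 5 with 1 library left out. For TAMs against MTMs in control mice, 2 members were called. That count was 0 with the fixed block, 1 after median centring, 0 after quantile normalisation, 1 without the variance trend, 0 with only the 2 groups in the fit, and 0 to 2 with 1 library left out. In MTMs between genotypes the count was 0 in every alternative, and for the difference of the differences 0 or 1. The calls over all 17475 genes moved too. In TAMs between genotypes they were 2778 in the main fit, 5029 after median centring and 2660 after quantile normalisation. For TAMs against MTMs they were 784 in MYC mice and 414 in control mice. They were 476 and 255 with the fixed block, and 90 and 196 with only the 2 groups in the fit. Except where the fit held fewer libraries or genes, the cause was not tested. The block changed no other call among the members.

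Where a library was left out of the MYC MTMs, the lone library was assumed to vary like the other groups. The fixed block could not be fitted for differences between genotypes, since each mouse has 1 genotype, nor the difference of differences with only 2 groups. The members with the fewest estimated reads in any library were Tgtp1, Socs1, Iigp1, Ifit1 and Samd9l, and 2 MYC MTM libraries limit every comparison that uses them.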
